A study of Oryza sativa with 24 samples.

Results

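The first 6 h of osmotic stress were examined in rice (Oryza sativa) seedlings by setting small RNA levels after 0.5, 2 and 6 h in 15% PEG6000, pooled, against the levels at 0 h. The comparison held 16 of the 24 arrays of the time course, chosen by the treatment time in their titles. The treated group comprised 12 arrays from 6 libraries, with 2 libraries at each of the 3 times, and the untreated group comprised 4 arrays from 2 libraries. Every group was labelled as PEG6000-treated rice, so 0 h was taken as the untreated state, and all seedlings shared Yoshida's culture solution with a day of 13 h at 26 °C and a night of 11 h at 22 °C. The cultivar, the age of the seedlings and the number of plants behind a library were not given in the sources used here. Seedlings kept without PEG for the same hours were not analysed here, so PEG and elapsed time cannot be told apart in a comparison with 0 h, and at 0.5, 2 and 6 h this includes the time of day. The labels do not give the hour at which samples were taken. If treatment began at a single hour, the 24 and 48 h samples share the time of day of 0 h. Comparisons between treated times likewise cannot tell PEG and elapsed time apart. Those among 0.5, 2 and 6 h, or of these with 24 and 48 h, then also include the time of day.

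Plant microRNAs are short RNAs that a Dicer-like enzyme cuts from hairpin transcripts and that an Argonaute protein then uses to recognise complementary messenger RNAs, which are cleaved or translated less. Many of the conserved families target transcription factors, and others target enzymes and transporters of nutrient metabolism. PEG of high molecular weight lowers the water potential of the root medium without entering the cells readily, and is commonly used in place of drying soil to impose water deficit.

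On each array 896 spots formed 224 sets of 4 neighbouring spots under 223 probe codes, of which 1 code stood at 2 places. The codes were not paired with miRNA names or sequences in the sources used here, so the results below are those of coded spot sets, and neither a family nor a target can be given for any of them. Levels are log2 of the Cy5 spot intensity plus 50, quantile normalized over the 16 arrays and averaged over the 4 spots and then over the 2 hybridizations of a library. A fold computed on this scale understates the change of a dim set. The library was the replicate (n = 2 per time), and libraries of the same number were treated as a block, that is, compared with each other across times.

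Median spot intensities per array ranged from 152 to 450, and 5th percentiles from 11.3 to 148. Between 1 and 14 spots per array were at the scanner's ceiling. The hybridizations of 1 library correlated over the sets with r between 0.974 and 0.993, which is a correlation across spot sets and not across replicates. Precision was limited by the small number of libraries: the median standard error of a pooled change was 0.14 on the log2 scale, and the median 95% confidence interval extended 0.33 to either side.

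Few small RNA spot sets passed the test of the first 6 h against 0 h. In the pooled comparison 5 of 224 sets passed an adjusted p of 0.05 (limma with Benjamini-Hochberg adjustment over all sets), which was 2.23% of the sets tested. Of these, 4 rose (R220, R15, R11 and R7; 1.79%) and 1 fell (R224; 0.446%). R220 and R224 had the largest changes of the 224 sets, about 11.0-fold up and 4.37-fold down, and the other 3 rose between 2.12 and 2.43 fold. All 5 belonged to the 210 sets whose code begins with R. With 14 sets whose code begins with N, the 0 among them is not read as a difference, and the meaning of the letters was not given. Since only 5 sets passed, all are named, R11 and R7 after their values were seen.

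The middle 50% of the 224 pooled changes lay between -0.19 and 0.11 around a median of -0.03, on a scale on which normalization holds the median near 0. Only 6 sets had a pooled change beyond 1 in either direction. The 6th, an N-coded set with a pooled change of 1.34, missed the threshold (adjusted p = 0.0985), and its mean raw intensity at 0 h was 46.6, below the offset of 50. Before adjustment 30 sets had a p under 0.05, which was 13.4% of the sets. In 30 sets (13.4%; 16 higher, or 7.14%, and 14 lower, or 6.25%) the 6 treated libraries did not overlap with the 2 untreated ones. The 25 of these that did not pass had pooled changes between -0.75 and 1.34, with a median size of 0.34.

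**Figure D1:**
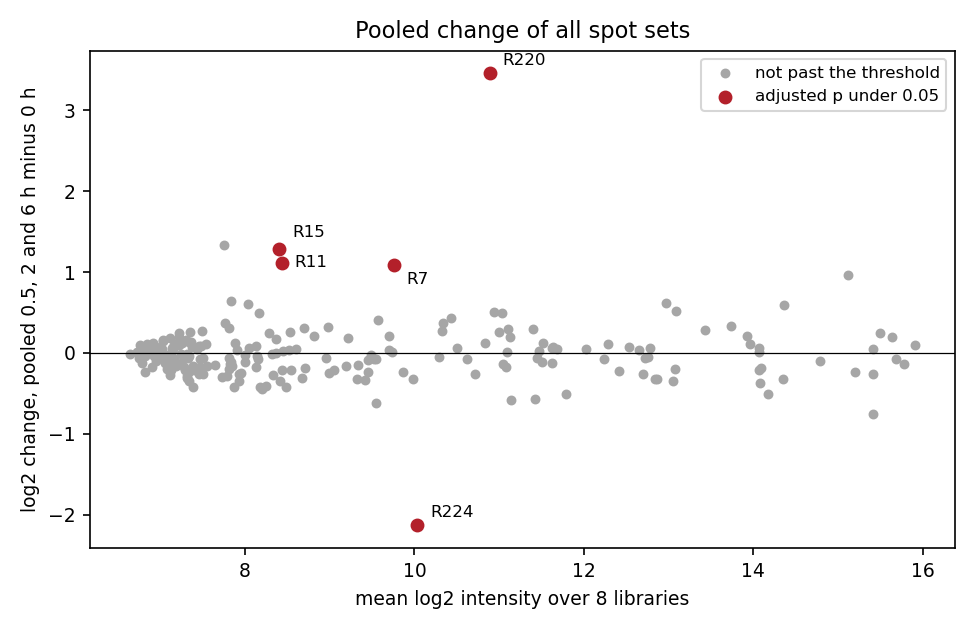
Pooled change of each of the 224 spot sets (mean of 0.5, 2 and 6 h minus 0 h, log2, vertical axis) against its mean log2 intensity over the 8 libraries (horizontal axis). Red points are the 5 sets past an adjusted p of 0.05; R220 at 3.46 and R224 at -2.13 lie far from the grey points, while R15, R11 and R7 lie between 1.08 and 1.28, at a height that 1 dim grey set (1.34) also reaches.

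R220 was at 8.36 and 8.24 (log2 intensity) in libraries 1 and 2 of 0 h. It was at 12.27 and 11.82 after 0.5 h, at 11.41 and 11.10 after 2 h, and at 12.12 and 11.80 after 6 h. Every treated library was thus well above both untreated ones, and the lowest treated values were those of 2 h. In raw intensity the 4 untreated arrays ranged from 147 to 349 with a median of 234, and the 12 treated arrays from 1730 to 5097 with a median of 4021. The arrays therefore did not overlap before normalization either. Ranked by brightness on its own array, the set moved from places 107 to 116 among 224 at 0 h to places 30 to 58 under PEG. The pooled log2 change was 3.46 ± 0.27 (SE; 95% confidence interval 2.82 to 4.09), with an adjusted p of 0.000255 by limma, and 6 of 6 same-numbered library pairs moved up, by 2.86 to 3.91. The pairs of a library number share its 0 h library, so they are not independent.

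R224 was at 11.30 and 11.96 in libraries 1 and 2 of 0 h. After 0.5 h it was at 8.84 and 9.70, after 2 h at 9.14 and 10.18, and after 6 h at 9.18 and 9.99. All 6 treated libraries lay below both untreated ones. Library 1 was below library 2 at each of the 4 times, with a difference of library 1 minus library 2 between -1.04 and -0.66, so the level of this set carried a difference between the library numbers besides the change with PEG. Raw intensity was between 2037 and 6093 on the untreated arrays (median 3086) and between 357 and 1562 on the treated ones (median 656), and the set moved from places 39 to 54 in brightness to places 68 to 100. The pooled log2 change was -2.13 ± 0.15 (SE; 95% confidence interval -2.49 to -1.77; adjusted p = 0.000255 by limma), with 6 of 6 library pairs lower. These pairs too share the 0 h library of their number. Without the block the adjusted p was 0.0177.

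R15 was at 7.48 and 7.41 at 0 h, at 8.82 and 8.72 after 0.5 h, at 8.35 and 8.34 after 2 h, and at 9.13 and 9.01 after 6 h. The libraries of a time were close to each other, and the 6 treated ones were all higher than the untreated ones. The pooled log2 change was 1.28 ± 0.23 (SE; 95% confidence interval 0.75 to 1.82; adjusted p = 0.0272 by limma). R11 had a similar course, at 7.53 and 7.68 at 0 h, 8.75 and 8.83 after 0.5 h, 8.43 and 8.41 after 2 h, and 8.78 and 9.10 after 6 h. Its pooled log2 change was 1.12 ± 0.18 (SE; 95% confidence interval 0.69 to 1.54; adjusted p = 0.0227 by limma). These were dim sets at 0 h: raw intensity was 54.0 to 155 for R15 and 60.9 to 212 for R11 there, against 224 to 575 and 251 to 549 under PEG. On 2 of the 4 untreated arrays each was within 3 times the array's 5th percentile, as it was on 1 of the 12 treated arrays, and an offset of 200 in place of 50 gave pooled changes of 0.82 and 0.70.

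R7 was the brightest of the 3 sets with a smaller rise. It was at 9.08 and 8.81 at 0 h, at 10.15 and 10.16 after 0.5 h, at 10.31 and 10.05 after 2 h, and at 9.66 and 9.83 after 6 h. The treated libraries were again all above the untreated ones, with the 6 h libraries nearest to them. Raw intensity went from 365 to 598 on the untreated arrays to 665 to 1233 on the treated ones, so for this set too the arrays did not overlap. Its pooled log2 change was 1.08 ± 0.18 (SE; 95% confidence interval 0.66 to 1.51; adjusted p = 0.0227 by limma).

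**Figure D2:**
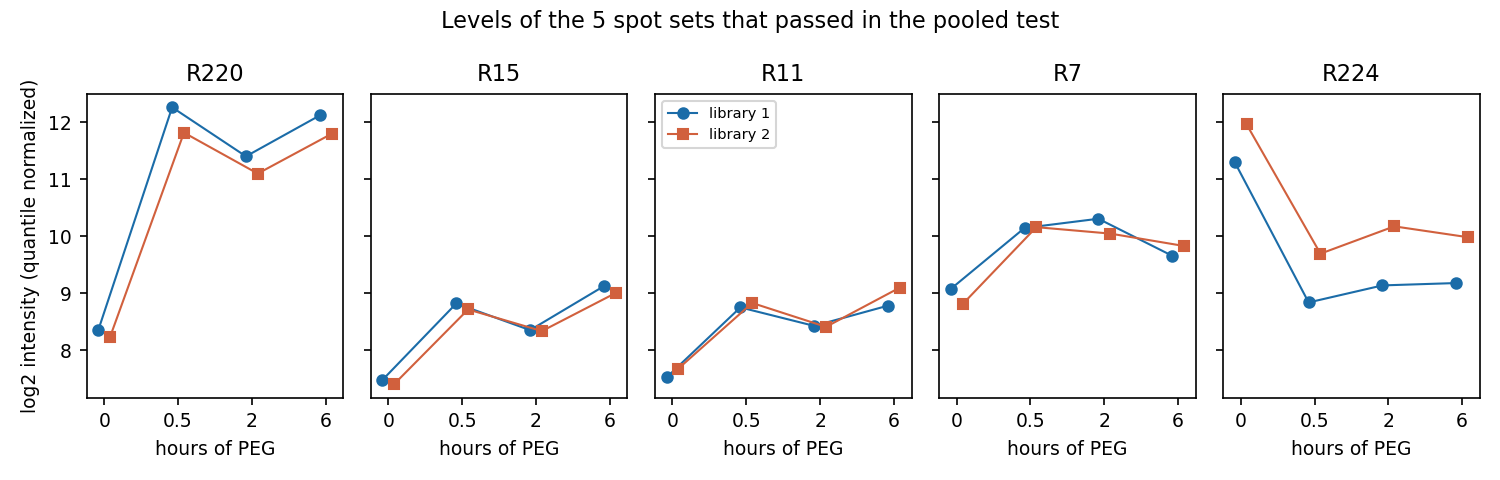
Log2 intensity after quantile normalization (vertical axis, the same in all panels) at 0, 0.5, 2 and 6 h of PEG (horizontal axis, evenly spaced and not to scale) for the 5 sets that passed in the pooled comparison. Circles are library 1 and squares library 2, each the mean of 2 hybridizations; in every panel both 0 h points lie on the far side of all 6 treated points, and in the R224 panel library 1 lies below library 2 at all 4 times.

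None of the 5 sets had a spot at the scanner's ceiling on any of the 16 arrays. R220 and R224 passed under 30 of 30 alternative settings, with changes of 2.95 to 3.87 and of -2.39 to -1.91. R7 passed under 22, R11 under 20 and R15 under 20. Without library 1 or library 2 of 0 h, or without library 1 or library 2 of 0.5 h, only R220 and R224 passed, and R7, R11 and R15 had adjusted p-values up to 0.281, 0.379 and 0.379. The same 2 sets alone passed without moderation of the variances and with an offset of 200. R11 and R15 also missed it without library 1 of 6 h (adjusted p = 0.0528 for both).

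The 5 sets lay in 2 places on the array. R7, R11 and R15 were next to each other in row 1 of the sub-grid at array row 1 and array column 1. The 4th set of that row had a pooled change of 0.21 (adjusted p = 0.661), and the 4 sets of the row after it had changes between -0.23 and 0.05, with 0 past the threshold by limma. R220 and R224, which changed in opposite directions, were neighbours in row 10 of the sub-grid at array row 2 and array column 1, and the remaining 2 sets of that row had changes of -0.17 and 0.03. The 4 sub-grids, of 56 sets each, thus held 3, 0, 2 and 0 of the changed sets. Whether neighbouring probes are related in sequence was not given, and the part of position in the result was not tested.

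In the main fits, the 3 times taken one by one gave more sets than the pool did. The fit with each time as its own group leaves differences among 0.5, 2 and 6 h out of the residual spread, whose median SD was 0.14 against 0.18 in the pooled fit on the log2 scale, with 3 residual degrees of freedom against 5. At 0.5 h, 11 sets changed (4.91%; 8 rose, or 3.57%, and 3 fell, or 1.34%). At 2 h, 13 changed (5.8%; 6 rose, or 2.68%, and 7 fell, or 3.12%), and at 6 h, 17 changed (7.59%; 14 rose, or 6.25%, and 3 fell, or 1.34%). Before adjustment 46, 61 and 53 sets had a p under 0.05 at the 3 times (20.5%, 27.2% and 23.7%). The 3 comparisons share the 0 h libraries and are not independent. In this same fit the mean of the 3 times minus 0 h gave 10 sets (7 rose, 3 fell), against 5 in the pooled fit.

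R220 had log2 changes of 3.75, 2.96 and 3.66 at 0.5, 2 and 6 h (SE 0.12 each). R224 had changes of -2.36, -1.97 and -2.05 (SE 0.12 each). R15 had changes of 1.33, 0.90 and 1.62 (SE 0.10 each), R11 of 1.19, 0.82 and 1.34 (SE 0.12 each), and R7 of 1.21, 1.24 and 0.80 (SE 0.14 each). All 15 of these single-time changes passed the threshold by limma with the block, the highest adjusted p being 0.0198 for R7 at 6 h. Without the block R224 missed it at each time (adjusted p = 0.0913, 0.122 and 0.149) and R7 missed it at 6 h (0.0700). R7 at 6 h also missed it when 0 h library 2 (0.0685) or 6 h library 2 (0.128) was left out, and R11 at 2 h when 2 h library 1 was (0.0613).

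Beyond these 5, 23 further sets passed at 1 time or more without passing in the pool. Of the 28 sets in all, 20 passed at a single time, 3 at 2 times and 5 at all 3. Beyond the 5, there were 6 sets at 0.5 h (4 higher, 2 lower; changes between -0.62 and 1.58), 8 at 2 h (2 higher, 6 lower; -1.04 to 1.05) and 12 at 6 h (10 higher, 2 lower; -0.93 to 1.62). In the pool these 23 sets had changes between -0.75 and 1.34, with a median size of 0.49 against 0.15 over all 224 sets. The pooled change is the mean of the single-time changes by which these sets were chosen, so a larger size was built in. Of the 28, 3 sets had a spot at the ceiling, against 10 of all 224.

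**Figure D3:**
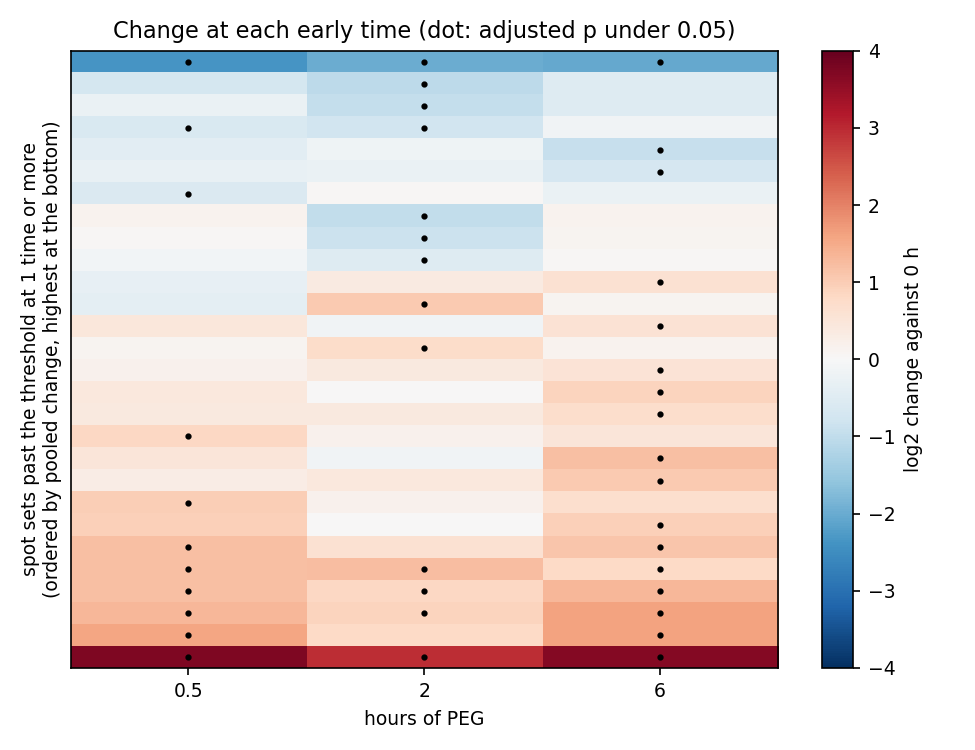
Log2 change against 0 h at 0.5, 2 and 6 h (columns) of the 28 spot sets that passed an adjusted p of 0.05 at 1 time or more (one horizontal band per set, ordered by pooled change); red is higher and blue lower than 0 h, and a dot marks a change past the threshold. The top band is R224 and the bottom band R220; 5 bands carry 3 dots and 20 carry 1.

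These counts depended on the settings. Without the block, 5 sets passed at 0.5 h (5 rose, 0 fell), 6 at 2 h (4 rose, 2 fell) and 4 at 6 h (4 rose, 0 fell). The pooled fit without the block gave 5 sets. With median scaling in place of quantile normalization, 17 passed at 0.5 h (8 rose, 9 fell), 75 at 2 h (20 rose, 55 fell) and 23 at 6 h (17 rose, 6 fell). Without normalization, 26 passed at 0.5 h (19 rose, 7 fell), 112 at 2 h (86 rose, 26 fell) and 27 at 6 h (20 rose, 7 fell). The balance of higher and lower sets at 0.5 h and at 2 h is therefore not settled by these data. Without normalization the median change over all sets was 0.23, 0.30 and 0.04 at the 3 times and 0.19 in the pool.

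Whether the pooled times differed among themselves was asked with a moderated F test that leaves the 0 h level out of the contrasts. Elapsed time and time of day cannot be told apart from hours of PEG in it. The F test passed for 30 of 224 sets (13.4%), and 60 sets (26.8%) had an unadjusted p under 0.05. In the 30 sets the highest and the lowest of the 3 times were a median of 0.78 apart on the log2 scale (0.50 to 1.43), against 0.28 over all sets. The sets were chosen by a test of these same differences, so a wider range was built in. Of the 30, 9 were highest and 15 were lowest at 2 h. The 2 h level was thus the highest or the lowest in 24 of the 30, as it was in 179 of all 224 sets, so this is not particular to the sets that passed. By pairs of times, 20 sets differed between 0.5 and 2 h (8.93%; 8 higher and 12 lower at 2 h), 32 between 2 and 6 h (14.3%; 16 higher and 16 lower at 6 h), and 1 between 0.5 and 6 h (0.446%; higher at 6 h).

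The arrays of 2 h had the fewest spots at the ceiling. They had 8 spots at the ceiling in all, 1 to 3 on an array, against 38 at 0 h, 29 at 0.5 h and 30 at 6 h. Their median intensities reached 450, against 398 at most at the other times, and their 5th percentiles, 29.6 to 140, lay within those of 0.5 h (24.3 to 148). The middle 50% of a 2 h array spanned 2.87 to 3.86 log2 units, against 3.60 to 4.54 at 0 h, 3.04 to 4.21 at 0.5 h and 3.89 to 4.42 at 6 h, so it overlapped most of the 0.5 h range. The part of these differences in the results at 2 h was not tested. The F test gave 70 sets with median scaling and 103 without normalization. Without the block it gave 0 sets by limma, with 29 at an unadjusted p under 0.05, and leaving out 1 treated library with the block kept gave between 0 and 11 sets (0 without library 2 of 0.5 h, with 41 at an unadjusted p under 0.05).

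The 2 sets with the lowest p in this test, R218 and R277, moved at 2 h in opposite directions. They were chosen by a test of these same differences, so large differences between times and low p-values were built in. R218 was at 10.17 and 11.45 in libraries 1 and 2 of 0 h, at 9.70 and 11.15 after 0.5 h, at 11.13 and 12.59 after 2 h, and at 10.08 and 11.74 after 6 h. Within each library number the 2 h value was the highest of the 4, although library 1 minus library 2 was between -1.66 and -1.28 throughout and the times overlapped when the numbers were disregarded. The level at 2 h exceeded that at 0.5 h by 1.43 ± 0.12 (SE; adjusted p = 0.00265) and then fell by 0.95 ± 0.12 to 6 h (adjusted p = 0.0125), with an adjusted p of 0.00782 in the F test by limma. Its pooled change of 0.26 ± 0.44 (SE) did not pass (adjusted p = 0.853). Without the block the F test of R218 gave an adjusted p of 0.754, and without library 2 of 0.5 h it gave 0.0524.

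R277 was at 9.90 and 10.18 at 0 h, at 10.14 and 10.21 after 0.5 h, at 8.78 and 9.33 after 2 h, and at 9.93 and 10.44 after 6 h. Both 2 h libraries lay below all 6 others. The level fell by 1.13 ± 0.14 (SE) between 0.5 and 2 h (adjusted p = 0.0162) and rose by 1.13 ± 0.14 from 2 to 6 h (adjusted p = 0.0125), with an adjusted p of 0.0158 in the F test by limma. At 6 h it was 0.01 ± 0.14 above 0.5 h (adjusted p = 0.991). The F test missed the threshold without the block (adjusted p = 0.139) and when 0.5 h library 2 (0.0524) or 2 h library 1 (0.0647) was left out.

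**Figure D4:**
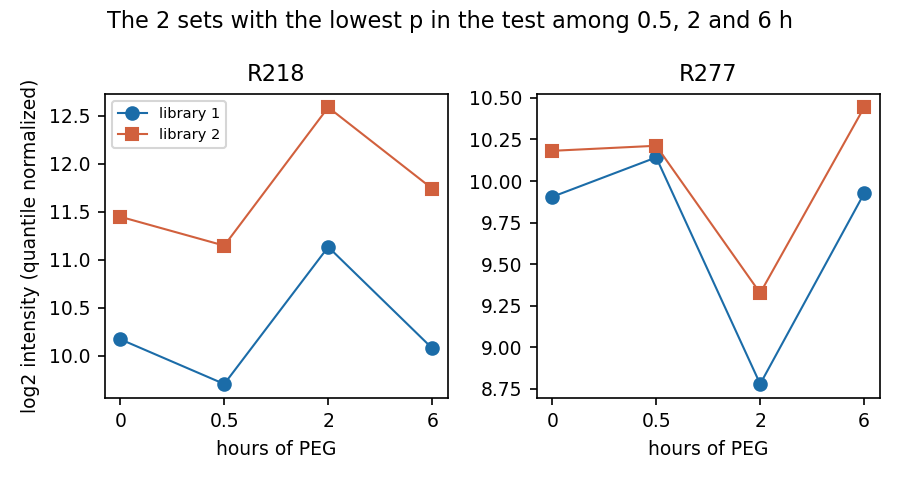
Log2 intensity after quantile normalization (vertical axis, scaled separately in the 2 panels) of R218 and R277 at 0, 0.5, 2 and 6 h of PEG (horizontal axis, evenly spaced and not to scale). Circles are library 1 and squares library 2; both libraries are highest at 2 h for R218 and lowest at 2 h for R277, and the libraries of R218 lie more than 1 log2 unit apart at every time.

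Of the 5 sets that changed in the pool, R220 and R15 also passed the F test (adjusted p = 0.0263 for both). R220 was lower at 2 h than at 0.5 h by 0.79 ± 0.12 (difference -0.79; adjusted p = 0.0186) and higher at 6 h than at 2 h by 0.71 ± 0.12 (adjusted p = 0.0140). R15 was also lowest at 2 h, with differences of -0.42 ± 0.10 (adjusted p = 0.0483) and 0.72 ± 0.10 (adjusted p = 0.0127). R7, R11 and R224 did not pass the F test (adjusted p = 0.167, 0.0625 and 0.170). By pairs of times, R11 rose by 0.52 ± 0.12 from 2 to 6 h (adjusted p = 0.0347 by limma). R11 did not pass between 0.5 and 2 h (0.116) or between 0.5 and 6 h (0.725). R7 and R224 passed between no pair of these times. The F tests of R220 and R15 passed under only 2 and 1 of 9 alternatives, with adjusted p-values up to 0.224 and 0.112. They missed the threshold without the block and without any 1 of the 6 treated libraries, and R15 also without normalization (0.0704).

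The early window was set beside the late times, 24 and 48 h, in a fit of all 12 libraries of the series with values normalized over the 24 arrays. Between the mean of the late times and the mean of the early times 27 of 224 sets differed (12.1%; 16 higher late, or 7.14%, and 11 lower, or 4.91%), and 43 (19.2%) had an unadjusted p under 0.05. The split was 18 higher and 7 lower with median scaling and 17 higher and 4 lower without normalization, and without the block 2 sets passed (2 higher, 0 lower). Leaving out 1 library gave 16 to 28 sets; it fell to 16 when 0.5 h library 1 or 24 h library 2 was left out and to 17 when 48 h library 2 was. This comparison shares the early libraries with the pooled one. It cannot tell hours of PEG apart from elapsed time or, if treatment began at a single hour, from the time of day.

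The 5 sets stood farther from 0 h late than early. R220 was 0.86 ± 0.11 (SE) higher late than early (adjusted p = 0.00119), with levels of 12.88 and 12.34 in libraries 1 and 2 of 24 h and of 13.17 and 12.22 in those of 48 h. R11 was 1.01 ± 0.12 higher (adjusted p = 0.000716), R15 was 0.76 ± 0.09 higher (adjusted p = 0.000716) and R7 was 0.41 ± 0.10 higher (adjusted p = 0.0183). R224 was 0.62 ± 0.10 lower (difference -0.62; adjusted p = 0.00492), with 8.65 and 9.17 at 24 h and 8.77 and 9.16 at 48 h. On this scale the mean change of R220 from 0 h was 3.74, 2.96 and 3.66 at the early times and 4.26 and 4.35 at 24 and 48 h. At 24 and 48 h the mean changes from 0 h were 1.89 and 2.21 for R15, 2.10 and 2.16 for R11, and -2.76 and -2.71 for R224. R7 did not keep its highest value to the end, with mean changes of 1.25, 1.27, 0.81, 1.77 and 1.27 at 0.5, 2, 6, 24 and 48 h. Without the block R220, R7 and R224 missed the threshold in the late comparison (adjusted p = 0.130, 0.130 and 0.546). R7 also missed it when 0.5 h library 1 (0.0623), 6 h library 1 (0.0598), 24 h library 2 (0.107) or 48 h library 1 (0.0854) was left out.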

How the data were processed

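Small RNA libraries of rice seedlings were labelled with a Cy5 primer by PCR for 1-colour spotted arrays, per the labels' protocols. The deposited scanner files give a linear intensity and a local background for each spot, per the file headers. Background was above 0 for 43 spots on the 16 arrays and was not subtracted. Subtracting it gave the values of the authors' deposited series table (largest difference 9e-06). Further steps by the authors were not given in the sources used here.

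From these, log2(intensity + 50) was quantile normalized over 16 arrays and averaged over 4 spots and 2 hybridizations. limma 3.58.1 in R 4.3.3 (statmod 1.5.0 for the random block) fitted the pooled treatment (5 residual degrees of freedom) or the time point (3; 5 with all 12 libraries), with the library number as a block. Tests are two-sided, Benjamini-Hochberg adjusted over 224 sets, at a threshold of 0.05. SE are moderated. The pooled fit, 1 single-time contrast (2 h) and the F test were tested on simulated data. The labels do not say that libraries of 1 time come from separate plants, so the p-values measure only how far these libraries vary, which may be technical.

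Library numbers were taken as pairs because the difference between library 1 and library 2 correlated between all 6 pairs of times (0.546 to 0.766 over sets); the labels do not say what they share. Leaving out 1 library of a time assumes that the lone one varies like the others.

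The comparison, the rule for naming sets and the tests were chosen with earlier results of these data known. The rule named at most 2 sets that rose and 2 that fell in the pool, by size of change. Only sets past the threshold whose treated and untreated libraries did not overlap could be named by it. In the F test it named the first 2 by p. Alternatives covered block, moderation, normalization, offset, spots, hybridizations, filters and libraries. miRNA families were not analysed here, since the codes could not be named.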

Additional observations from a re-analysis of the deposited data

Results flagged for a closer look

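On the 4 arrays of 0.5 h, R220 was at 12.81 (log2 intensity) on hybridization 2 of library 1, far from the other 3 arrays, which lay between 11.73 and 11.87. This was 1 of 35 groups of values examined for a sample far from the others, among which chance gives about 1 in 20, or 1.75. With the first hybridizations alone the pooled change of R220 was 3.04 and with the second alone 3.87, and it passed in both (adjusted p = 0.00210 and 0.000115 by limma).

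The change from 0 h differed among 0.5, 2 and 6 h for R218 (adjusted p = 0.00782 in limma's F test), R277 (0.0158), R220 (0.0263) and R15 (0.0263). R220 and R15 were nearest to 0 h at 2 h, R277 was below 0 h at that time only (log2 change -0.99), and R218 was above it (1.05).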

How the results depend on the processing

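The pooled count of 5 sets was 5 without the replicate block (the same 5), and 5 or 6 with no normalization, median scaling, cyclic loess, normexp, an offset of 10, a variance trend, the median of the spots, the brighter sets alone, sets without ceiling spots, the deposited series table, and, chosen after seeing the data, without the spots the scanner software marked. It was 2 without moderation, 2 with an offset of 200, 3 with the first hybridizations (4 with the second), 9 with all 16 arrays and a random block per library (consensus correlation 0.19), and 10 with time as a factor over either 8 or 12 libraries. Without the 0.5 h, 2 h or 6 h libraries it was 2, 8 or 3. Leaving out 1 library gave 2 to 7: 2 without either library of 0 h or of 0.5 h, and 3 without library 1 of 6 h. R220 and R224 were among the sets in all 30 alternatives, and 0 of the changes of R220, R15, R11, R7 and R224 reversed. The single-time counts of 11, 13 and 17 (0.5, 2 and 6 h) were 5, 6 and 4 without the replicate block, 17, 75 and 23 with median scaling, and 26, 112 and 27 without normalization; leaving out 1 library gave 6 to 15, 10 to 22 and 5 to 17. At 0.5 h, leaving out 0 h library 1 or 0.5 h library 1 gave 6, and leaving out 0.5 h library 2 gave 7. At 2 h it was 22 without library 2 of 0 h. At 6 h it was 11 without library 1 of 0 h or either library of 0.5 h, 9 when 6 h library 1 was left out and 5 when 6 h library 2 was. The F test's 30 sets became 0, 70 and 103 under the same 3 settings and 0 to 11 without 1 library, and the 27 of the late comparison became 2, 25 and 21, and 16 to 28 without 1 library (added after seeing the data). The causes of these shifts were not tested. Signal over background cannot be judged, since the local background of most spots is 0 in the files.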
